A study of Macaca mulatta with 24 samples.

Results

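Moesin (MSN), ezrin (EZR) and radixin (RDX) make up the ERM family of membrane linkers. All probes that carry 1 of these 3 gene symbols in the deposited normalized ileum table were taken, which gave 4 probes of 43603 on the array: 1 for MSN, 1 for EZR and 2 for RDX. The 2 RDX probes are called here the brighter and the dimmer probe, by their mean signal over all arrays. The family was chosen by measured values of the same arrays, since MSN stands among the genes with altered levels after irradiation. The levels of the 4 probes are therefore described with their spread and without a test.

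ERM proteins hold the actin cortex to the plasma membrane. Their FERM domain binds phosphoinositides and the tails of membrane proteins, the C-terminal tail binds actin filaments, and phosphorylation of a threonine in that tail keeps the molecule in its open, linking form. Ezrin is the member that dominates in the brush border of intestinal epithelium, whereas moesin is the main member in leukocytes and endothelium. Radixin was first found at cell junctions and is the main ERM protein of the bile canaliculus in liver.

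Ileum was collected from 24 young-adult male rhesus macaques, and total RNA of the whole gut wall was hybridized to 1 single-color array per animal. The 4 control animals were sham-irradiated, and the other animals received a single uniform total-body dose (TBI) of cobalt-60 gamma rays. After 6.7 Gy and after 7.4 Gy, 4 animals were examined on day 4, 4 on day 7 and 2 on day 12. The same 4 unirradiated animals, labelled day 4, served as baseline for every group, so the 6 comparisons with them are not independent of each other. Values are log2 levels, the log2 of the background-subtracted signal minus the 75th percentile of the array. A level of 0 equals that percentile, and since probes bind with different strength only changes were compared between probes. Between 72.7% and 88.1% of the probes were well above background on an array, and all 4 ERM probes were so on 24 of 24 arrays. The ileal bile acid genes FABP6 (8.74 ± 0.05, SD, n = 4) and SLC10A2 (3.40 ± 0.91) stood far above the percentile in the unirradiated animals, and none of 4 ileum markers passed the test after irradiation. Unirradiated animal 1 stood apart from all other animals in the smooth muscle markers, with a mean log2 level of 1.49 over 4 markers, against 4.18 to 4.22 in the other 3 unirradiated animals and 3.55 to 4.71 after irradiation. It also had the highest EZR level of the unirradiated group and the lowest levels of MSN and both RDX probes. Differences of MSN, EZR and the brighter RDX probe are therefore also given without it. Those of the dimmer RDX probe were not computed without it. The part of tissue make-up in these levels was not tested. In whole tissue, fewer cells of a type and less RNA per cell cannot be told apart.

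MSN was lower in ileum on days 7 and 12 after both doses, whereas its level on day 4 overlapped that of unirradiated animals. The 4 unirradiated animals had MSN levels of -2.07, -1.69, -1.56 and -1.42. On day 4 the levels were -2.32, -1.40, -2.20 and -1.70 after 6.7 Gy and -1.60, -1.68, -2.04 and -2.08 after 7.4 Gy. Both day 4 groups thus reached into the unirradiated range, and 3 of 8 animals lay below it. On day 7 the levels were -2.41, -2.29, -2.53 and -2.25 after 6.7 Gy and -2.55, -2.81, -2.76 and -2.71 after 7.4 Gy. On day 12 they were -3.00 and -2.84 after 6.7 Gy and -2.68 and -2.53 after 7.4 Gy. All 12 animals of days 7 and 12 lay below all unirradiated animals.

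Expressed as a difference from the unirradiated mean, MSN was at -0.22 (SE 0.18) on day 4 after the lower dose and at -0.17 (SE 0.18) after the higher dose, on the log2 scale. On day 7 the differences were -0.68 (SE 0.18) after 6.7 Gy, or 62.3% of the unirradiated level, and -1.02 (SE 0.18) after 7.4 Gy, or 49.3%. On day 12 they were -1.24 (SE 0.22) after 6.7 Gy, or 42.4%, and -0.92 (SE 0.22) after 7.4 Gy, or 52.8%. Leaving out 1 animal moved the value on day 7 after 7.4 Gy to between -1.15 and -0.93, and that on day 12 after 6.7 Gy to between -1.36 and -1.15. Without unirradiated animal 1 the 6 values were -0.35 and -0.29 on day 4, -0.81 and -1.15 on day 7, and -1.36 and -1.05 on day 12, the lower dose first. With normexp background correction the values on day 7 after 7.4 Gy and on day 12 after 6.7 Gy were -0.76 and -0.87. On day 4 the smaller values moved between -0.39 and -0.08 after 6.7 Gy and between -0.29 and -0.08 after 7.4 Gy when 1 animal was left out, with -0.08 reached without irradiated animal 1 and without unirradiated animal 4.

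**Figure D1:**
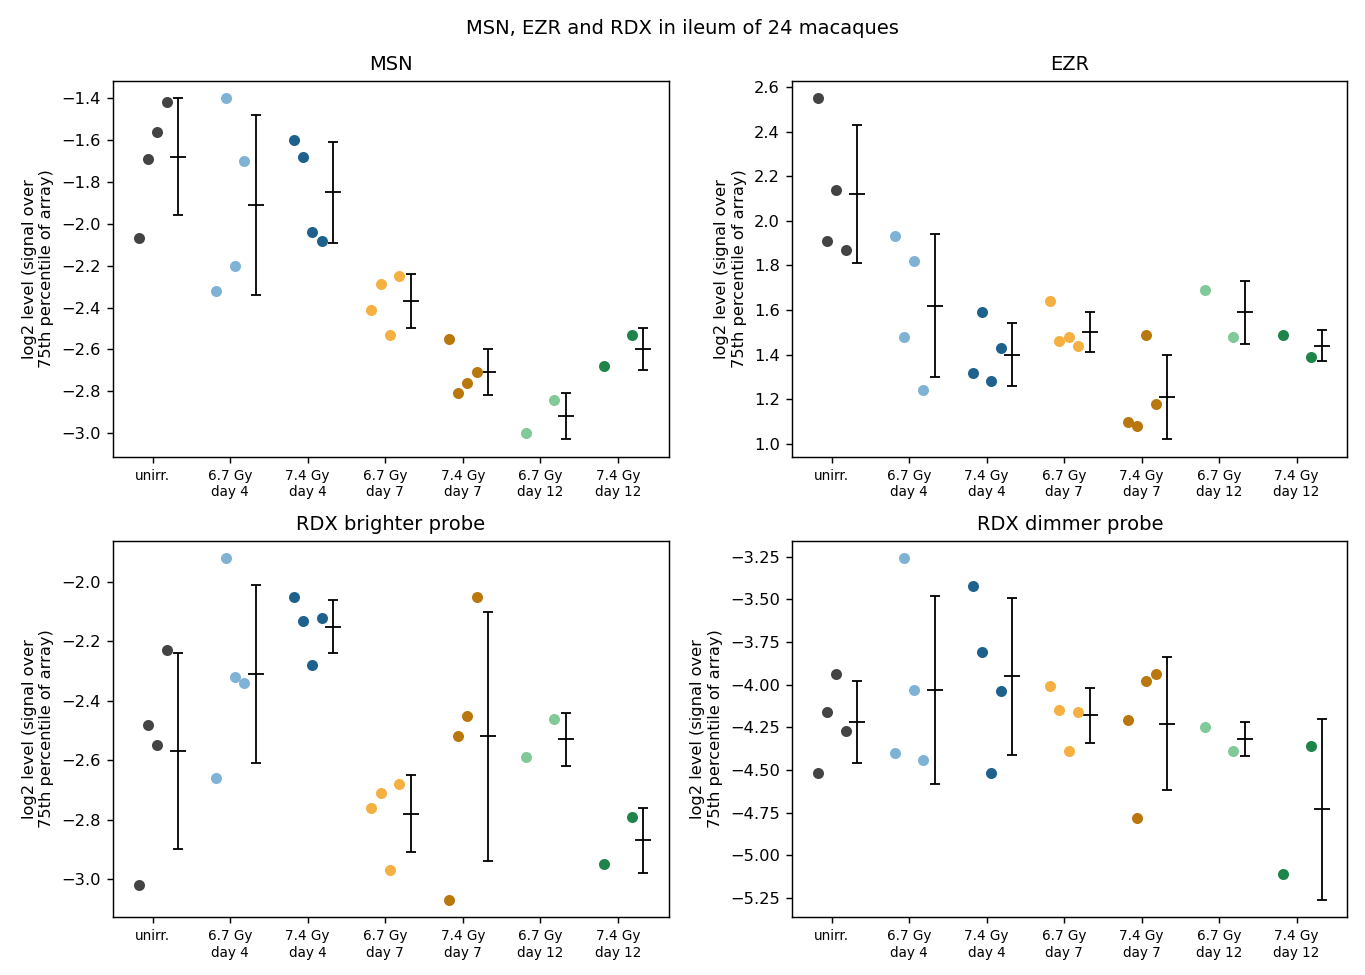
Log2 level (vertical axis, signal relative to the 75th percentile of the array) of the MSN, EZR and 2 RDX probes by dose and day (horizontal axis), with 1 point per animal and the mean ± SD beside the points. MSN points of days 7 and 12 all lie below the unirradiated points, EZR points do so from day 4 on with 1 exception, and RDX points overlap the unirradiated points in every group.

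EZR was lower already on day 4 and stayed so on days 7 and 12. The unirradiated animals had EZR levels of 2.55, 1.91, 2.14 and 1.87. On day 4 the levels were 1.93, 1.48, 1.82 and 1.24 after 6.7 Gy and 1.32, 1.59, 1.28 and 1.43 after 7.4 Gy. A single animal, 1 of those given 6.7 Gy, remained within the unirradiated range. On day 7 the levels were 1.64, 1.46, 1.48 and 1.44 after 6.7 Gy and 1.1, 1.08, 1.49 and 1.18 after 7.4 Gy. On day 12 they were 1.69 and 1.48 after 6.7 Gy and 1.49 and 1.39 after 7.4 Gy. In all, 19 of 20 irradiated animals lay below every unirradiated animal.

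The EZR differences from the unirradiated mean were smaller than 2-fold in every group. They were -0.50 (SE 0.16) and -0.71 (SE 0.16) on day 4, -0.61 (SE 0.16) and -0.90 (SE 0.16) on day 7, and -0.53 (SE 0.19) and -0.68 (SE 0.19) on day 12, each pair with the lower dose first. The lowest mean level, on day 7 after 7.4 Gy, was 53.5% of the unirradiated one. Without unirradiated animal 1, at 2.55 the highest of all 24, the differences ranged from -0.76 on day 7 after 7.4 Gy to -0.36 on day 4 after 6.7 Gy.

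RDX showed no such fall. Its brighter probe had levels of -3.02, -2.48, -2.55 and -2.23 in the unirradiated animals. On day 4 it was at -2.66, -1.92, -2.32 and -2.34 after 6.7 Gy and at -2.05, -2.13, -2.28 and -2.12 after 7.4 Gy. Means on day 4 were thus above the unirradiated mean, by 0.26 (SE 0.19) and 0.42 (SE 0.19), although both groups overlapped the unirradiated range. Without unirradiated animal 1 these differences were 0.11 and 0.27, and without irradiated animal 2 the first was 0.13. On day 7 the levels were -2.76, -2.71, -2.97 and -2.68 after 6.7 Gy and -3.07, -2.52, -2.45 and -2.05 after 7.4 Gy, with differences of -0.21 (SE 0.19) and 0.05 (SE 0.19). On day 12 they were -2.59 and -2.46 after 6.7 Gy and -2.95 and -2.79 after 7.4 Gy, with differences of 0.04 (SE 0.23) and -0.30 (SE 0.23). Leaving out 1 animal moved the day 7 values to between -0.36 and -0.10 after 6.7 Gy and between -0.11 and 0.23 after 7.4 Gy, and the day 12 values to between -0.11 and 0.16 after 6.7 Gy and between -0.45 and -0.19 after 7.4 Gy. The lowest values came without unirradiated animal 1, except that of day 7 after 7.4 Gy, which came without irradiated animal 4. All 6 groups overlapped the unirradiated animals.

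The dimmer RDX probe had levels from -4.52 to -3.94 in the unirradiated group and from -5.11 to -3.26 in the irradiated animals. Its differences were 0.19 and 0.27 on day 4 (SE 0.26 each), 0.04 and 0.00 on day 7 (SE 0.26 each), and -0.10 and -0.51 on day 12 (SE 0.32 each), again with 6.7 Gy first. Both probes were highest on average on day 4 after 7.4 Gy and lowest on day 12 after 7.4 Gy, although with slide as a block the brighter probe was at -0.08 on day 12 after 7.4 Gy, above its -0.21 on day 7 after 6.7 Gy. Their differences had the same sign on day 4 and on day 12 after 7.4 Gy, and lay within 0.21 of 0 in the other 3 groups.

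**Figure D2:**
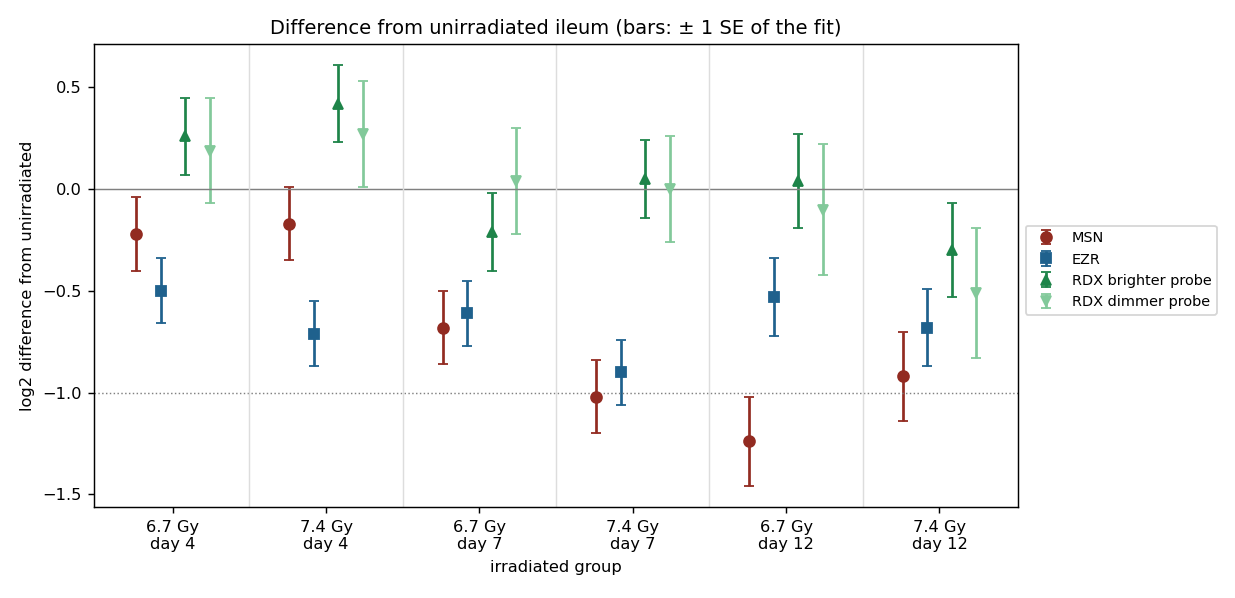
Log2 difference from the unirradiated mean (vertical axis) of the 4 probes in the 6 irradiated groups (horizontal axis), with bars of 1 SE of the fit; the dotted line marks a 2-fold decrease. MSN moves from -0.22 and -0.17 on day 4 to values between -1.24 and -0.68 later, EZR stays between -0.90 and -0.50, and RDX lies on both sides of 0.

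The order of group means differed between the genes. For MSN it ran from unirradiated through 7.4 Gy day 4, 6.7 Gy day 4, 6.7 Gy day 7, 7.4 Gy day 12 and 7.4 Gy day 7 to 6.7 Gy day 12. Neighbours in this order overlapped except the last pair, in which 6.7 Gy day 12 lay below 7.4 Gy day 7. For EZR it ran from unirradiated through 6.7 Gy day 4, 6.7 Gy day 12, 6.7 Gy day 7, 7.4 Gy day 12 and 7.4 Gy day 4 to 7.4 Gy day 7, and all neighbours overlapped. For the brighter RDX probe the day 4 groups came first, the unirradiated animals stood in the fifth place, and all neighbours overlapped too.

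Over all tested probes, every irradiated animal lay below every unirradiated animal for 7.71% and 7.91% on day 4, 3.51% and 4.24% on day 7, and 7.56% and 9.37% on day 12, the lower dose first. Among the 4 ERM probes this held for none and for EZR on day 4, and for MSN and EZR in each of the 4 later groups. Since these comparisons chose the family, nothing was read from that count. Compared with all tested probes, the MSN difference stood at percentile 3.52 and 2.11 on day 7 and at 0.919 and 2.65 on day 12, after 36.1 and 37.7 on day 4. That of EZR stood at 13.7 and 5.12 on day 4, 4.40 and 2.78 on day 7, and 5.91 and 5.38 on day 12.

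Dose and time were also set against each other directly. On day 7, MSN was lower after 7.4 Gy than after 6.7 Gy by a log2 difference of -0.34 (SE 0.18), and the 2 groups were separated by 0.02. For EZR this difference was -0.29 (SE 0.16) with overlapping groups. On day 4 the doses differed by 0.06 (SE 0.18) for MSN and by -0.21 (SE 0.16) for EZR, with overlap in both. From day 4 to day 7, MSN was lower by -0.46 (SE 0.18) after 6.7 Gy, with overlap, and by -0.85 (SE 0.18) after 7.4 Gy, without overlap. For EZR the same steps were -0.11 and -0.19 (SE 0.16 each), with overlap. The brighter RDX probe was lower on day 7 than on day 4 by -0.47 (SE 0.19) after 6.7 Gy, where the groups were separated by 0.02, and by -0.38 (SE 0.19) after 7.4 Gy, with overlap. Of all tested probes, 1.85% were lower without overlap at the higher dose on day 7, and 3.94% and 6.40% on day 7 than on day 4 at the lower and the higher dose.

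Arrays sat on 6 slides with 4 positions each, and 4 slides that hold all unirradiated animals were scanned first. Within a slide, 12 irradiated animals could be compared with the unirradiated animal beside them. These comparisons reuse the 4 unirradiated animals that were the baseline when the family was chosen. They are therefore not independent of each other or of that choice. The share of all probes lower in 12 of 12 was not counted. MSN was lower in 12 of these 12, with differences of -0.26 to -0.01 in the 4 animals of day 4, of -1.01 to -0.35 in the 6 animals of day 7, and of -1.44 and -1.42 on day 12 after 6.7 Gy. EZR was lower in 12 of 12 too, with differences of -1.06 to -0.28. The brighter RDX probe was lower in 5 and the dimmer one in 4. Both animals of day 12 after 7.4 Gy were on the slides scanned later, which held no unirradiated animal, and with slide as a block their differences were -0.79 (SE 0.24) for MSN, -0.64 (SE 0.20) for EZR and -0.08 (SE 0.23) for the brighter RDX probe. The same block gave -0.09 for MSN on day 4 after 6.7 Gy. All unirradiated arrays were in the first position of their slide and all day 7 and day 12 arrays in the last 2, so position and group cannot be told apart on those days.

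The genes that act with ERM proteins were followed in 4 lists, of regulators, membrane ligands, PDZ scaffolds with transporters, and the microvillus core. Of 52 listed genes, 39 had a tested probe, and each was read from its brightest one. These genes were tested with limma. The shares of all probes set beside them also take in dimmer probes of a gene and probes without a symbol. The rates are therefore not strictly alike. On day 4, 2 of 39 genes passed an adjusted p of 0.05 after 6.7 Gy, against 2.61% of all probes, and 8 of 39 after 7.4 Gy, against 6.66%. With the limit of a 2-fold change added, 2 and 3 of 39 were altered on day 4, against 0.978% and 2.33% of all probes. On day 7, 0 of 39 passed after 6.7 Gy, where 0.449% of probes did, and 1 of 39 after 7.4 Gy, where 0.978% did. On day 12, 0 of 39 passed after either dose, against 0.155% and 0.0499% of all probes. Taking the lower dose first, an unadjusted p under 0.05 was reached by 9 and 15 genes on day 4. It was reached by 2 and 4 genes on day 7 and by 3 and 4 on day 12. The share of all probes at that limit was not counted in any comparison, so nothing was read from these numbers. With the limits on adjusted p and 2-fold change together, the counts were 0 on days 7 and 12 after both doses. This held in limma and in each alternative run, including the methods' t-test. Of all probes, 0.235% and 0.568% met both limits on day 7, and 0.108% and 0.0443% on day 12, the lower dose first. From day 4 to day 7, VIL1 alone of the 39 met both limits after each dose, against 0.354% and 0.942% of all probes. That count of 1 became 0 without day 4 animal 4 after 6.7 Gy, and without day 4 animal 1 or day 7 animal 1 or 3 after 7.4 Gy. Between doses 0 of 39 did on either day in limma and with the methods' t-test, where 0% of all probes did and where 3 genes on day 4 and 1 on day 7 had an unadjusted p under 0.05.

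Among the regulators, which switch ERM proteins between the closed and the linking form, 11 of 16 listed genes were measured. PRKCQ passed the test on day 7 after 7.4 Gy, and none of the others passed in any group. PRKCQ encodes protein kinase C theta, a kinase of T cells that phosphorylates moesin. It was at -2.35 ± 0.11 (SD, n = 4) in unirradiated ileum and at -3.08 ± 0.23 on day 7 after 7.4 Gy, a fall by 0.73 (SE 0.14, limma's adjusted p 0.0089), with all 4 animals below all unirradiated ones. On day 7 after 6.7 Gy its difference was -0.52 (SE 0.14, adjusted p 0.13). Its other 2 tested probes gave -1.62 (adjusted p 0.015) and -0.63 (adjusted p 0.21) on day 7 after 7.4 Gy. On the slides scanned first, with 2 irradiated animals, the main probe gave -0.74 (adjusted p 0.15). LRRK2, a kinase that phosphorylates ERM proteins, had a difference of -1.04 on day 7 after 6.7 Gy (SE 0.26, adjusted p 0.09), where 3 of 4 arrays were well above background, and of -1.04 on day 12 after 6.7 Gy (SE 0.32, adjusted p 0.27), where 1 of 2 were. Merlin (NF2), the relative of the ERM proteins, had differences from -0.22 to 0.17 over the 6 groups. The median of the 11 genes lay between -0.20 and 0.03, beside -0.10 to 0.06 for all tested probes.

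The membrane ligands are the proteins whose tails ERM proteins hold, and 8 of 11 were measured. On day 4 after 7.4 Gy, 3 of the 8 rose: VCAM1, the endothelial adhesion molecule for leukocytes, CD44, the hyaluronan receptor, and the heparan sulfate proteoglycan syndecan-2 (SDC2). VCAM1 went from -0.12 ± 0.30 (SD, n = 4) to 0.90 ± 0.24, a difference of 1.01 (SE 0.26, adjusted p 0.027), and all 4 animals were above the unirradiated ones. After 6.7 Gy its level on day 4 was 0.93 ± 0.30, a difference of 1.05 (SE 0.26, adjusted p 0.04). CD44 differed by 0.72 (SE 0.18, adjusted p 0.025) and SDC2 by 0.83 (SE 0.20, adjusted p 0.02) on day 4 after 7.4 Gy. With slide as a block VCAM1 had adjusted p of 0.074 after 6.7 Gy and 0.067 after 7.4 Gy, and SDC2 had a difference of 0.72 (adjusted p 0.07). VCAM1 after 6.7 Gy had adjusted p of 0.054 with the replicate block and 0.056 without the probe filter. The second probes gave 0.89 (adjusted p 0.024) for CD44 and 0.60 (adjusted p 0.11) for SDC2. On day 7 the differences were 0.45 and 0.05 for VCAM1, 0.10 and 0.08 for CD44 and 0.11 and 0.45 for SDC2, and none passed the test. From day 4 to day 7 after 7.4 Gy, VCAM1 fell by 0.96 (SE 0.26, adjusted p 0.045). The median of the 8 measured ligands was 0.12 and 0.08 on day 4, -0.01 and -0.05 on day 7, and -0.24 and -0.15 on day 12.

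These rises lost the adjusted p limit when single animals were left out. VCAM1 after 7.4 Gy had adjusted p from 0.055 to 0.095 without unirradiated animal 1, 2 or 3 or irradiated animal 1 or 2, with differences of 0.93 and more. After 6.7 Gy the same held without unirradiated animal 1, 2 or 3 or irradiated animal 2, 3 or 4 (differences of 0.96 to 1.04, adjusted p from 0.07 to 0.09). CD44 missed the limit without unirradiated animal 1 or 2 or irradiated animal 1 or 3 (0.61 to 0.72, adjusted p from 0.061 to 0.092), and SDC2 without unirradiated animal 1 (0.74, adjusted p 0.07) or irradiated animal 3 (0.76, adjusted p 0.058).

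PDZ scaffolds join ezrin to transporters of the apical membrane, and 7 of the 9 genes of this list were measured. On day 4 after 7.4 Gy, CLIC4, a chloride intracellular channel protein, rose from 1.26 ± 0.42 to 2.18 ± 0.36 (SD, n = 4), by 0.92 (SE 0.24, adjusted p 0.027). Its second probe gave 0.84 (adjusted p 0.033). SCYL3, a pseudokinase that binds ezrin, fell by 0.46 (SE 0.13, adjusted p 0.042), and its second probe gave -0.36 (adjusted p 0.16). Without unirradiated animal 1 the CLIC4 value was 0.71 (adjusted p 0.10) and that of SCYL3 -0.32 (adjusted p 0.15). CLIC4 missed the limit also without irradiated animal 1 (0.79, adjusted p 0.10) or 4 (0.91, adjusted p 0.055), and SCYL3 without unirradiated animal 3 or any 1 of the 4 irradiated animals (-0.49 to -0.42, adjusted p from 0.055 to 0.13). SCYL3 missed it as well with slide as a block (adjusted p 0.094), with the replicate block (0.063), as the mean of its probes (0.079) and without the probe filter (0.058). PDZK1, a scaffold of brush border transporters, had the largest differences of the list, -1.37 (SE 0.46, adjusted p 0.097) and -1.45 (SE 0.46, adjusted p 0.06) on day 4, which did not pass the test. The first was -0.72 (adjusted p 0.23) without irradiated animal 4, at 1.39 while the other 3 were at 3.93 to 4.12. The scaffold SLC9A3R1, known as EBP50 or NHERF1, had differences of -0.43 and -0.35 on day 4 with an SE of 0.32. The median of the 7 genes was -0.27 and -0.15 on day 4 and lay between -0.07 and 0.14 later.

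The microvillus core holds the actin bundlers, myosins and protocadherins of the brush border in which ezrin sits, and 13 of 16 genes were measured. Villin (VIL1), which bundles and severs actin, fell on day 4 from 3.81 ± 0.34 in unirradiated animals to 2.49 ± 0.43 after 6.7 Gy and 2.54 ± 0.29 after 7.4 Gy (SD, n = 4 each). The differences were -1.32 (SE 0.19, adjusted p 0.0011) and -1.27 (SE 0.19, adjusted p 0.00085), with all animals below the unirradiated ones, and the test was still passed when any 1 animal was left out. On day 7 villin was at 3.68 ± 0.14 and 3.54 ± 0.10, higher than on day 4 by 1.19 (SE 0.19, adjusted p 0.0084) and 1.0 (SE 0.19, adjusted p 0.0087). MYO1A, the brush border myosin, fell on day 4 after 7.4 Gy by 1.02 (SE 0.25, adjusted p 0.021) and had a difference of -0.89 (adjusted p 0.059) after 6.7 Gy. The bundler fimbrin (PLS1) fell by 0.93 (SE 0.26, adjusted p 0.037) after 7.4 Gy, and its second probe gave -0.82 (adjusted p 0.056).

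MYO1A missed the limit without unirradiated animal 1 (-0.92, adjusted p 0.073) or irradiated animal 1 (-0.76, adjusted p 0.086), and PLS1 without unirradiated animal 1, 2 or 3 or irradiated animal 1, 3 or 4 (-0.99 to -0.69, adjusted p from 0.056 to 0.14) and without the probe filter (adjusted p 0.051). On the slides scanned first, with 2 irradiated animals, the differences on day 4 after 7.4 Gy were larger for MYO1A (-1.18, adjusted p 0.083), PLS1 (-1.03, 0.16), CD44 (0.77, 0.13), VCAM1 (1.22, 0.064) and SCYL3 (-0.49, 0.18), which missed the limit, as did VCAM1 after 6.7 Gy (1.15, 0.079). As a list, 13 of 13 genes were below the unirradiated mean after 6.7 Gy and 12 of 13 after 7.4 Gy on day 4, with medians of -0.52 and -0.46 beside -0.10 and -0.07 for all probes. On day 7 the medians were -0.24 and -0.26, beside 0.00 and -0.03, and on day 12 they were 0.18 and 0.04, beside 0.06 and -0.01. Within a slide VIL1 was lower than in the unirradiated animal in 4 of 4 animals of day 4, by -1.97 to -0.98, and MYO1A by -1.81 to -0.23, while VCAM1 was higher by 0.72 to 1.40 in 4 of 4. With array position as a block, none of the 8 genes that passed on day 4 after 7.4 Gy did so. The differences were then larger for SDC2 (1.25, adjusted p 0.10), CLIC4 (1.11, adjusted p 0.21) and SCYL3 (-0.65, adjusted p 0.18). They were smaller for VIL1 (-1.09, adjusted p 0.14), VCAM1 (0.81, adjusted p 0.40), PLS1 (-0.71, adjusted p 0.51), CD44 (0.42, adjusted p 0.57) and MYO1A (-0.33, adjusted p 0.77). After 6.7 Gy VCAM1 was then at 0.95 (adjusted p 0.17), while VIL1 kept a difference of -1.24 (adjusted p 0.024). With the methods' t-test the adjusted p of the 9 named genes that had passed in limma was 0.057 to 0.21. On day 7, when EZR was at -0.61 and -0.90, villin differed from unirradiated animals by -0.14 and -0.27 (adjusted p 0.91 and 0.57). On day 12, when EZR was at -0.53 and -0.68, villin differed by -0.12 (adjusted p 0.91) after 6.7 Gy and by -0.60 (adjusted p 0.49) after 7.4 Gy, where both animals lay below all unirradiated ones.

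**Figure D3:**
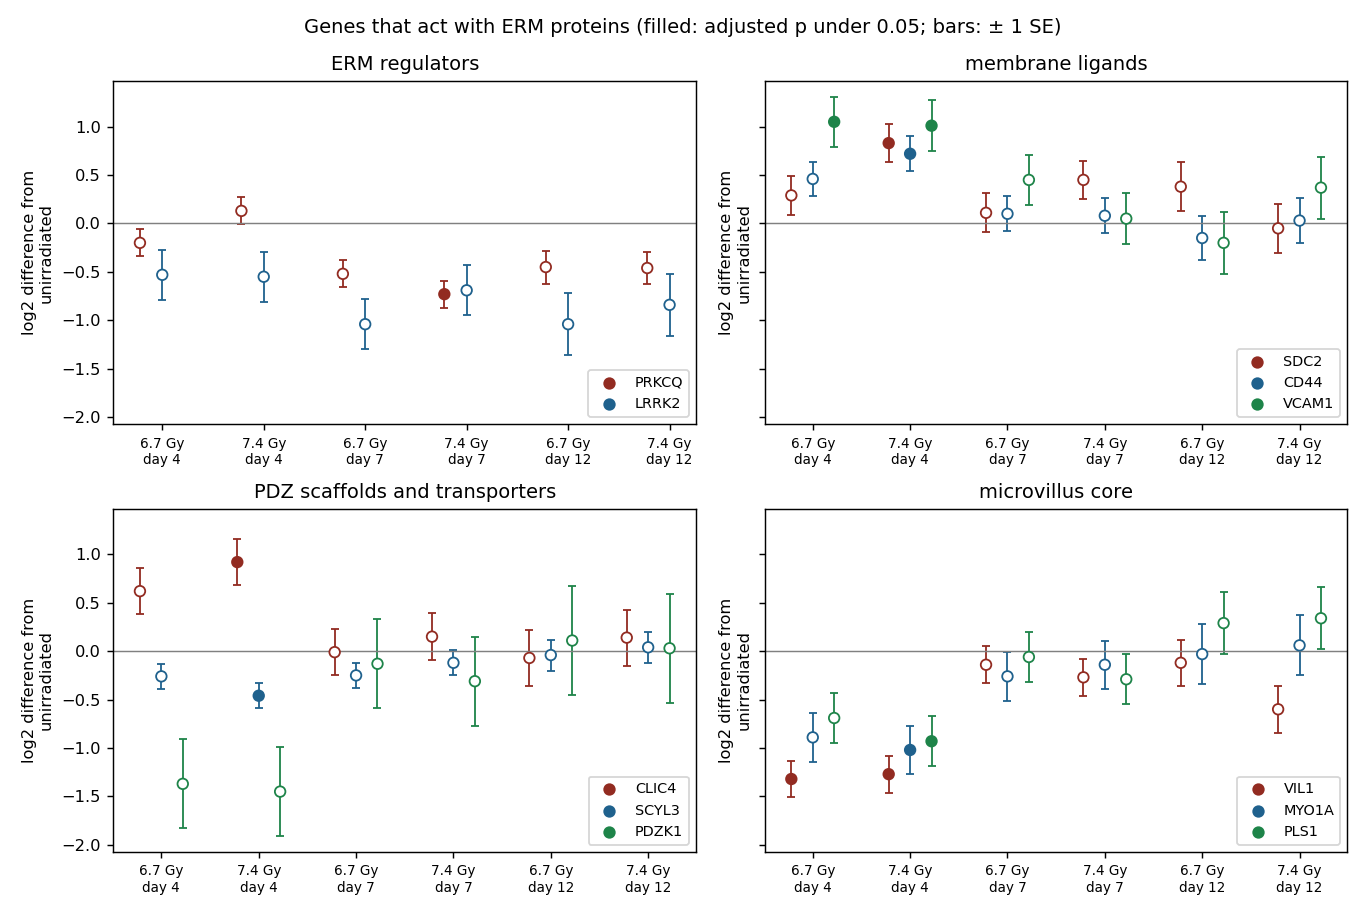
Log2 difference from the unirradiated mean (vertical axis) in the 6 irradiated groups (horizontal axis) for the named genes of each list, with bars of 1 SE and filled symbols for an adjusted p under 0.05. Filled symbols stand on day 4, with VCAM1, CD44, SDC2 and CLIC4 above 0 and VIL1, MYO1A, PLS1 and SCYL3 below 0, except for PRKCQ on day 7 after 7.4 Gy.

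Of 6 measured leukocyte markers, 4 fell on day 7 after 6.7 Gy (CD52, CORO1A, LCP1 and RAC2, by 0.95 to 1.01) and 5 after 7.4 Gy, the 5 including CD53. CORO1A, an actin-binding protein of leukocytes, fell by 1.01 (SE 0.15, adjusted p 0.0054) and 1.20 (SE 0.15, adjusted p 0.00058). On day 12 CORO1A and LCP1 fell after 6.7 Gy by 1.12 (adjusted p 0.024) and 1.07 (adjusted p 0.035), and none passed after 7.4 Gy. On day 4, 3 fell after 6.7 Gy and 2 after 7.4 Gy. The summed linear level of the 6 markers was 23.9 to 35.1 in unirradiated animals, 16.1 to 24.7 on day 4, 12.5 to 15.8 on day 7 and 15.5 to 18.0 on day 12. MSN and these markers were both lower on days 7 and 12, whereas the markers had already declined on day 4. Their order differed among the later groups. MSN was lowest on day 12 after 6.7 Gy, at -1.24, where the marker median was -0.93. That median was lowest on day 7 after 7.4 Gy, at -1.13, where MSN was at -1.02. The part of leukocyte number in the MSN value was not tested.

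The median of 4 B cell markers lay between -1.69 and -1.20 in the 6 groups, below the leukocyte median of -1.13 to -0.44 in each. Of 7 T cell markers, 0 passed on day 7 after 6.7 Gy and 3 (CD3D, CD3G and CD2, by 0.86 to 0.95) after 7.4 Gy, where CD79B, the B cell marker that passed, fell by 1.34 (on day 4 by 1.29 and 1.25). The B cell marker MS4A1 was well above background in none of the 4 animals of day 4 after 7.4 Gy and in 1 of 4 on day 7. Of 8 endothelial markers, CDH5 and VWF rose on day 4 after 7.4 Gy and none passed on days 7 and 12. Their medians, the lower dose first, were 0.11 and 0.42 on day 4 and -0.21 and -0.06 on day 7. On day 12 they were -0.22 and -0.46. After 7.4 Gy, 8 of 8 means were above the unirradiated mean on day 4 and 8 of 8 below it on day 12. Among 4 macrophage markers CD14 rose on day 4 after 7.4 Gy by 1.14, and CSF1R fell on day 7 by 0.97 and 0.77. Of 5 fibroblast markers DCN and LUM rose on day 4 after 7.4 Gy, by 1.26 and 1.09. Tests of single marker genes, for all cell types, were not repeated with blocks, the methods' t-test or animals left out. None of 4 smooth muscle markers passed in any comparison with unirradiated animals, although all 4 means were above the unirradiated mean in each of the 6 groups, with medians of 0.24 to 0.79 and the low unirradiated animal 1 in the baseline. Of 7 epithelial markers, KRT20 and CLDN3 fell on day 4 after both doses and EPCAM after 7.4 Gy, by 0.61 to 1.05, and none passed on days 7 and 12. KRT18 had differences of 0.47 and 0.55 on day 4 (adjusted p 0.33 and 0.26) and FABP2 of 2.02 and 0.90, so that 5 of 7 means were lower and 2 higher at each dose. The summed linear epithelial level was 211 to 295 in unirradiated animals, 134 to 203 on day 4 and 186 to 261 later. The mean log2 level of the same markers overlapped, at 2.83 to 3.47 in unirradiated animals and at 2.61 to 3.62 and 2.63 to 3.07 on day 4. FABP2, which that mean includes, was not well above background in 3 of 4 unirradiated animals. On days 7 and 12 at most 0.978% of all probes passed, so a marker that did not pass says little. The median of the 7 epithelial markers was 0.10 and -0.02 on day 7 and 0.04 and -0.11 on day 12, the lower dose first. EZR was at -0.61 and -0.90 on day 7 and at -0.53 and -0.68 on day 12. Ileum marker medians were -0.58 and -0.28 on day 4, -0.03 and -0.71 on day 7, and 0.38 and -0.04 on day 12. The part of epithelial content in the EZR decrease was not tested.

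Across the 24 arrays the MSN level followed the mean log2 level of the leukocyte markers, with Pearson's r of 0.74 and Spearman's rho of 0.73. With the endothelial markers r was 0.68 and rho 0.66. These are given as a description because the groups differ in both. Once each group's mean was subtracted, r with the leukocyte markers was 0.25, and 0.04 without the 2 arrays farthest from the middle. Within groups MSN had its highest value with the endothelial markers, with r of 0.79 (rho 0.65, and r of 0.62 without the 2 farthest arrays). The brighter RDX probe followed the endothelial markers, with r of 0.70 (rho 0.63, and 0.59), the smooth muscle markers, with r of 0.65 (rho 0.75, and 0.66), and the fibroblast markers, with r of 0.60 (rho 0.59, and 0.54). EZR had its highest value with the 4 ileum markers, with r of 0.75 (rho 0.62, and 0.71), and r of 0.71 to 0.76 when any 1 of the 4 was left out. With the epithelial markers r was 0.39 for EZR, -0.34 for MSN and -0.47 for RDX, and without FABP2 it was 0.45, -0.65 and -0.77. EZR deviated opposite to MSN within groups, with r of -0.63 (rho -0.58, and -0.59), whereas over all levels the pair had r of 0.31. MSN and the brighter RDX probe had r of 0.54 within groups (rho 0.55, and 0.36), and the 2 RDX probes 0.53 (rho 0.63, and 0.62). These values come from 6 pairs of probes and 27 pairs of a gene and a marker list, all from the same arrays.

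**Figure D4:**
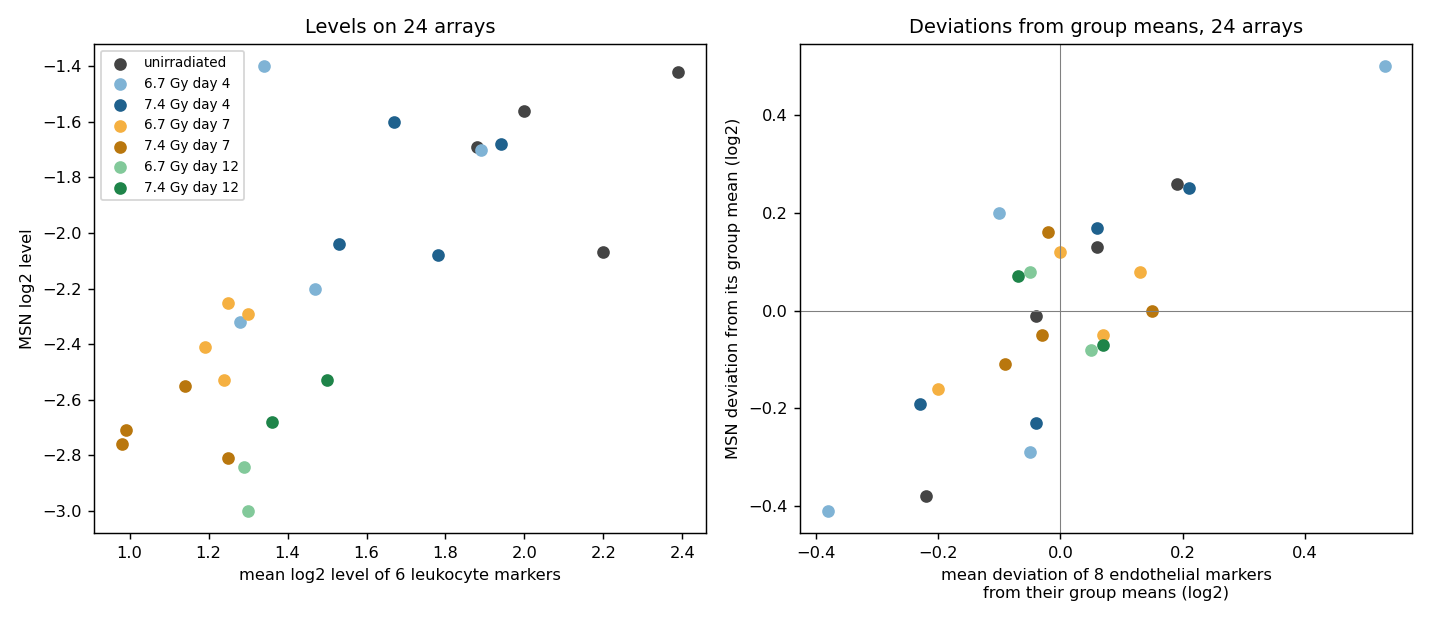
Left, MSN log2 level against the mean log2 level of 6 leukocyte markers on 24 arrays, colored by group. Right, deviation of MSN from its group mean against the mean deviation of 8 endothelial markers, both in log2 units. Animals of days 7 and 12 lie at the lower left on the left (r of 0.74), and within groups MSN rises with the endothelial markers (r of 0.79).

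The genes most like each member were taken from 14190 genes with a symbol and a tested probe, by Pearson's r over the 24 arrays. For MSN these were APBB1IP (r of 0.872), BCL2A1 (0.825), LOC701239 (0.825), PIP4K2A (0.813) and UNC13D (0.81). APBB1IP, an adaptor of integrin activation in leukocytes, differed from unirradiated animals by -0.85 on day 7 after both doses and by -0.91 and -0.76 on day 12. BCL2A1, a leukocyte relative of BCL2, differed by -1.41 and -2.16 on day 7 and by -2.05 and -1.48 on day 12. For EZR the list held LOC693729 (0.854), LOC705942 (0.849), ARFGAP3 (0.817), SHOC2 (0.813) and SMCR7 (0.81). ARFGAP3, a regulator of Golgi traffic, differed by -0.31 and -0.49 on day 4 and by -0.33 and -0.69 on day 7. For RDX it held LOC719153 (0.889), the basement membrane protein NID2 (0.884), TNFAIP8L3 (0.873), the peptide amidating enzyme PAM (0.872) and the splicing regulator PTBP2 (0.871). PAM differed by 0.51 and 0.95 on day 4 and by -0.07 and 0.15 on day 7. No gene stood among the 5 for more than 1 member, and within groups r ranged from 0.24 to 0.60 for the genes like MSN, from 0.67 to 0.80 for those like EZR and from 0.83 to 0.91 for those like RDX.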

How the data were processed

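Total RNA of ileum (RNA integrity number of at least 6 required by the authors) was labelled with Cy3 and hybridized to Agilent Rhesus Macaque 4x44K arrays, 1 per animal, without pooling. Per the file headers, Feature Extraction 11.0.1.1 gave a background-subtracted intensity for each spot, which the authors deposited together with the spot and local background medians. For the log2 values of the deposited normalized table, the authors subtracted the 75th percentile of each array with GeneSpring, and each probe is centred on its median there.

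Here log2 intensities of the scanner files were taken, spots of 1 probe were averaged, and the array's 75th percentile (an intensity of 837.3 to 1330.2) was subtracted. A probe was tested if all arrays of some group showed it well above background, which held for 36108 of 43603. Groups came from the sample titles. The protocol text of the labels names another last day than the titles, day fields and methods, and day 12 was used. A mean for each group was fitted in R 4.3.3 by limma (version 3.58.1), and p-values were adjusted by Benjamini-Hochberg over all tested probes. The fit was tested on simulated data. Replicate numbers do not mark shared animals. P-values and SE measure the spread between animals, and precision is limited by how many arrays a group has. The members, the lists and the rules were chosen with earlier results of these data known. Named are the members, every listed partner gene altered in at least 1 comparison with unirradiated ileum, the 3 genes of each list with the smallest adjusted p, and the 5 genes most like each member, apart from items not reported here.

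Alternatives were normexp background correction with an offset of 50, run on spot medians because the files hold no spot means, quantile normalization, the deposited normalized table, mean of probes, slide, position and replicate blocks, other probe filters, limma with trend, the methods' t-test and each array left out. Slides scanned first only, each marker left out of its list, and each animal left out for PDZK1 were added after seeing the data. The deposited raw table was not used, since the scanner files hold the intensities. Listed genes without a symbol on the array were not measured. No sequence or coordinate is given, since the arrays were annotated on rheMac2 and only gene tables of another assembly were used here.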

Additional observations from a re-analysis of the deposited data

Results flagged for a closer look

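In 5 of 80 groups of 4 animals checked for the 4 ERM probes and 12 partner genes, 1 animal stood apart from the other 3, and chance alone would do this in about 1 of 20 groups. None of the 5 concerned MSN, EZR or RDX. Unirradiated animal 1 had CLIC4 at 0.63, with the others at 1.41 to 1.52, and SCYL3 at 0.73, with the others at 0.13 to 0.22. Animal 4 on day 4 after 6.7 Gy had PDZK1 at 1.39, with the others at 3.93 to 4.12. Animal 4 on day 7 after 6.7 Gy had CD44 at 0.43, with the others at 0.04 to 0.10. Animal 1 on day 4 after 7.4 Gy had VIL1 at 2.10, with the others at 2.63 to 2.72.

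A difference between days at the same dose passed the test for 3 partner genes. From day 4 to day 7 after 7.4 Gy, PRKCQ differed by -0.87 (SE 0.14, limma's adjusted p 0.0027) and VCAM1 by -0.96 (SE 0.26, adjusted p 0.045), each lower in 4 of 4 animals. VIL1 differed by 1.19 (SE 0.19, adjusted p 0.0084) after 6.7 Gy and by 1.0 (SE 0.19, adjusted p 0.0087) after 7.4 Gy, higher in 4 of 4 animals at each dose.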

How the results depend on the processing

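The MSN and EZR differences kept their sign under every alternative run, except MSN on day 4 after 7.4 Gy, which was 0.04 on the slides scanned first. With normexp background correction MSN moved to -0.76 on day 7 after 7.4 Gy and to -0.87 on day 12 after 6.7 Gy. The brighter RDX probe moved to 0.32 on day 7 after 7.4 Gy on the slides scanned first, and the near-zero RDX values on day 7 after 7.4 Gy and day 12 after 6.7 Gy changed sign in 2 of 15 and 4 of 13 alternatives. The count of altered partner genes on day 4 after 6.7 Gy, 2 of 39, was 1 with a slide, position or replicate block, without the probe filter and on the slides scanned first, and 0 with the methods' t-test. After 7.4 Gy, 3 of 39 became 0 with a position block and with the t-test. Between days, the count of 1 after 6.7 Gy became 0 with the t-test and on the slides scanned first. After 7.4 Gy it became 0 with quantile normalization, a slide block, the t-test and the slides scanned first, and 2 with probes above background on all arrays and with limma's trend. Leaving out 1 animal gave counts of 1 to 3 on day 4 after 6.7 Gy, 1 to 4 on day 4 after 7.4 Gy (1 without unirradiated animal 1 or irradiated animal 1), and between days 0 to 1 after 6.7 Gy (0 without day 4 animal 4) and 0 to 3 after 7.4 Gy (0 without day 4 animal 1 or day 7 animal 1 or 3, and 3 without day 4 animal 2). Same-numbered animals of different groups did not deviate together (median r of 0.03 in 62 pairs, and -0.01 in 182 other pairs), so the replicate block (1 altered partner gene on day 4 after 6.7 Gy) pairs a number only. A position block could not be fitted where days 7 or 12 are compared with unirradiated animals or with day 4. The cause of these changes was not tested.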
